A study of Homo sapiens with 24 samples.

Results

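The transcripts of 32 genes of cholesterol and fatty acid synthesis were followed in a human keratinocyte line immortalised with telomerase, N/TERT-1, written nTERT-1 in the labels. The genes were taken by symbol from a table of 26364 genes, and all 32 were present. All 32 also passed the filter on low counts, which left 15757 genes for testing. The labels give 4 genotypes: KAT2A_KD, KAT2B_KD, KAT2AB_KD and the control NT. Each was sampled at the stages Subconfluent, Confluent and Differentiated (day 4 in the deposited sample table), with 2 libraries in each of the 12 groups. The products of KAT2A and KAT2B are closely related histone acetyltransferases, alternative catalytic subunits of the SAGA and ATAC coactivator complexes. Every library carries the treatment label of keratinocyte differentiation and was made from polyadenylated RNA with a strand-specific kit. The labels do not state how the knockdowns were made, whether a knockdown line is 1 clone, what NT abbreviates, or whether the libraries of a group came from separate cultures. The p-values therefore measure only the spread between these libraries, which may be technical.

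Cholesterol is built from acetyl-CoA through the mevalonate pathway, squalene and a series of sterol intermediates. When sterols in the endoplasmic reticulum are scarce, the SREBP transcription factors, encoded by SREBF1 and SREBF2, are released from their INSIG-bound precursors and raise the transcription of these enzymes and of the fatty acid enzymes. When sterols are plentiful, oxysterols activate the LXR receptors, which raise the cholesterol exporters ABCA1 and ABCG1, the ubiquitin ligase MYLIP, and SREBF1. In the epidermis, keratinocytes that differentiate make the cholesterol, fatty acids and ceramides of the lamellar barrier. The 32 genes were grouped by role: 7 of the mevalonate and isoprenoid steps, 11 of the squalene and sterol steps, 4 regulators and carriers, 7 of fatty acid synthesis and desaturation, and 3 LXR targets.

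The promoters of 4 members are shown because HMGCS1, INSIG1 and MSMO1 are among the genes called higher at the Differentiated stage in knockdown cells below, and because SREBF2 encodes the sterol-responsive factor itself. The windows run from 250 bases before to 50 bases after the first listed transcription start, in the direction of the gene, from RefSeq (GRCh38.p14). Capitals mark CCAAT or its reverse complement ATTGG, the box bound by NF-Y, in the first 3 windows. In SREBF2 they mark TCACCCCAC, a sterol regulatory element. The HMGCS1 window is at chr5:43313363-43313662 on the minus strand. The INSIG1 window is at chr7:155297628-155297927, the MSMO1 window at chr4:165327419-165327718 and the SREBF2 window at chr22:41832855-41833154, all on the plus strand.
HMGCS1: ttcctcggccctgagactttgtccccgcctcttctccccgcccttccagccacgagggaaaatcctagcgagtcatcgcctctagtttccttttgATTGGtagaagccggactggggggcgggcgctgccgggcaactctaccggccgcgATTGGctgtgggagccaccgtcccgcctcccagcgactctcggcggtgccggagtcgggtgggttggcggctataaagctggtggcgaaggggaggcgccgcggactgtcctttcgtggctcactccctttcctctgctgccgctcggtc
INSIG1: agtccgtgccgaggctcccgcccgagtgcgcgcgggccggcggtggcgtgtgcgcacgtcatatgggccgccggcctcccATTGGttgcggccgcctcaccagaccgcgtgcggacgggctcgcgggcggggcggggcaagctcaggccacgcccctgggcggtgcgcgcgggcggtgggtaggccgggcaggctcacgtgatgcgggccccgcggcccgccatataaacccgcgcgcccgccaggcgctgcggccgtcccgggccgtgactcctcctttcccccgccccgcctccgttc
MSMO1: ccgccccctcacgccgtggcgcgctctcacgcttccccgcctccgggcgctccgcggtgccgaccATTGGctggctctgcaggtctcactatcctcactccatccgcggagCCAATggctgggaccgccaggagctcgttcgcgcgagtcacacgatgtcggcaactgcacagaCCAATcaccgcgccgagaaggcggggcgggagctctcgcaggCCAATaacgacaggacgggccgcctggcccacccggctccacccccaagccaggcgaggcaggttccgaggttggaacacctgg
SREBF2: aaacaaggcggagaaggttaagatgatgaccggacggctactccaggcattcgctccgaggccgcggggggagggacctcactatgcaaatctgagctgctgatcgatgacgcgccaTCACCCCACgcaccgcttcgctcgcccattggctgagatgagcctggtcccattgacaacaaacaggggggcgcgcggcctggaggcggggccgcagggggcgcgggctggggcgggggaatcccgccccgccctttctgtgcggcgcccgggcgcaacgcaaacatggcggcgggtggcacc
HMGCS1 holds 2 CCAAT boxes, INSIG1 holds 1 and MSMO1 holds 4. Of the 32 genes, 27 had a promoter in the table. CCAAT was found on either strand in 18 of these 27 windows (66.7%), and in 35.7% of all 27305 promoters of the same length. TCACCCCAC was found in 1 of the 27, SREBF2, and in 0.425% of all promoters, and the looser form TCACNCCAC, which contains it, again in SREBF2 alone of the members and in 1.15% of all promoters. CACGTG, the E-box that SREBPs also bind, was found in LSS, SC5D, INSIG1 and ABCA1, which is 14.8% of the 27 windows, against 7.43% of all. These are matches of letters within a short window, not measured binding.

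Library totals ran from 8010178 to 16054003 counts, and levels are given in CPM, counts scaled to a common library size with TMM factors. KAT2A stood at 3.46 to 10.4 CPM in its 4 knockdown libraries at Subconfluent, against 30.1 and 32.7 in NT, at 1.67 to 7.35 against 36.4 to 38.5 at Confluent, and at 1.98 to 6.85 against 10 and 12.8 at Differentiated. KAT2B stood at 0.152 to 1.92 CPM in its knockdown libraries, against 4.76 and 5.58 in NT, at 0.668 to 2.96 against 4.06 to 4.32, and at 4.58 to 18.9 against 40.4 to 44.8 over the same stages. Every knockdown library was thus below both NT libraries of its stage for the gene it targets. By the edgeR test described below, KAT2A was called lower at Subconfluent and Confluent in both genotypes, and not at Differentiated (adjusted p = 0.139 in KAT2A_KD and 0.144 in KAT2AB_KD). KAT2B was called lower at Differentiated in both genotypes, and not at Subconfluent (0.0689 in KAT2B_KD and 0.117 in KAT2AB_KD) or Confluent (0.22 and 0.419). Of these 6 calls, that of KAT2A in Confluent KAT2AB_KD cells held without any 1 library, and each of the others was lost without at least 1. The summed level of 5 basal keratinocyte markers ran from 14900 to 16900 CPM at Subconfluent, 19300 to 29100 at Confluent and 27500 to 50200 at Differentiated. KRT5 and KRT14 reached 22300 and 26000 CPM, and COL17A1, ITGB4 and TP63 at most 2410, 999 and 293. The markers went both ways in NT at Differentiated. Without NT Subconfluent 2, log2 changes against Subconfluent were 0.82 for KRT5, 1.09 for COL17A1 and -0.56 for TP63. Against Confluent, ITGB4 had -0.63 without NT Confluent 1, and KRT14 0.69 without NT Confluent 2. Melanocyte markers summed to 2.75 to 12.9 CPM with TYR at 0 throughout, and adipocyte markers to 0.393 to 2.89 CPM with ADIPOQ and LPL at 0. Sebocyte markers, with MC5R at 0, summed to at most 0.289 CPM before differentiation and to 0.822 to 6.79 CPM at Differentiated. Of these CIDEA reached 6.41 CPM, and the other genes of the list at most 0.685 CPM in any library. Fibroblast markers summed to 1.14 to 7.34 CPM before differentiation and to 31.5 to 53.3 CPM at the Differentiated stage. Within that sum COL1A1 ran from 1.07 to 51.1 CPM, and the other 5 genes reached at most 1.75 CPM in any library. In bulk RNA, fewer cells of a type and less RNA per cell cannot be told apart.

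**Figure D1:**
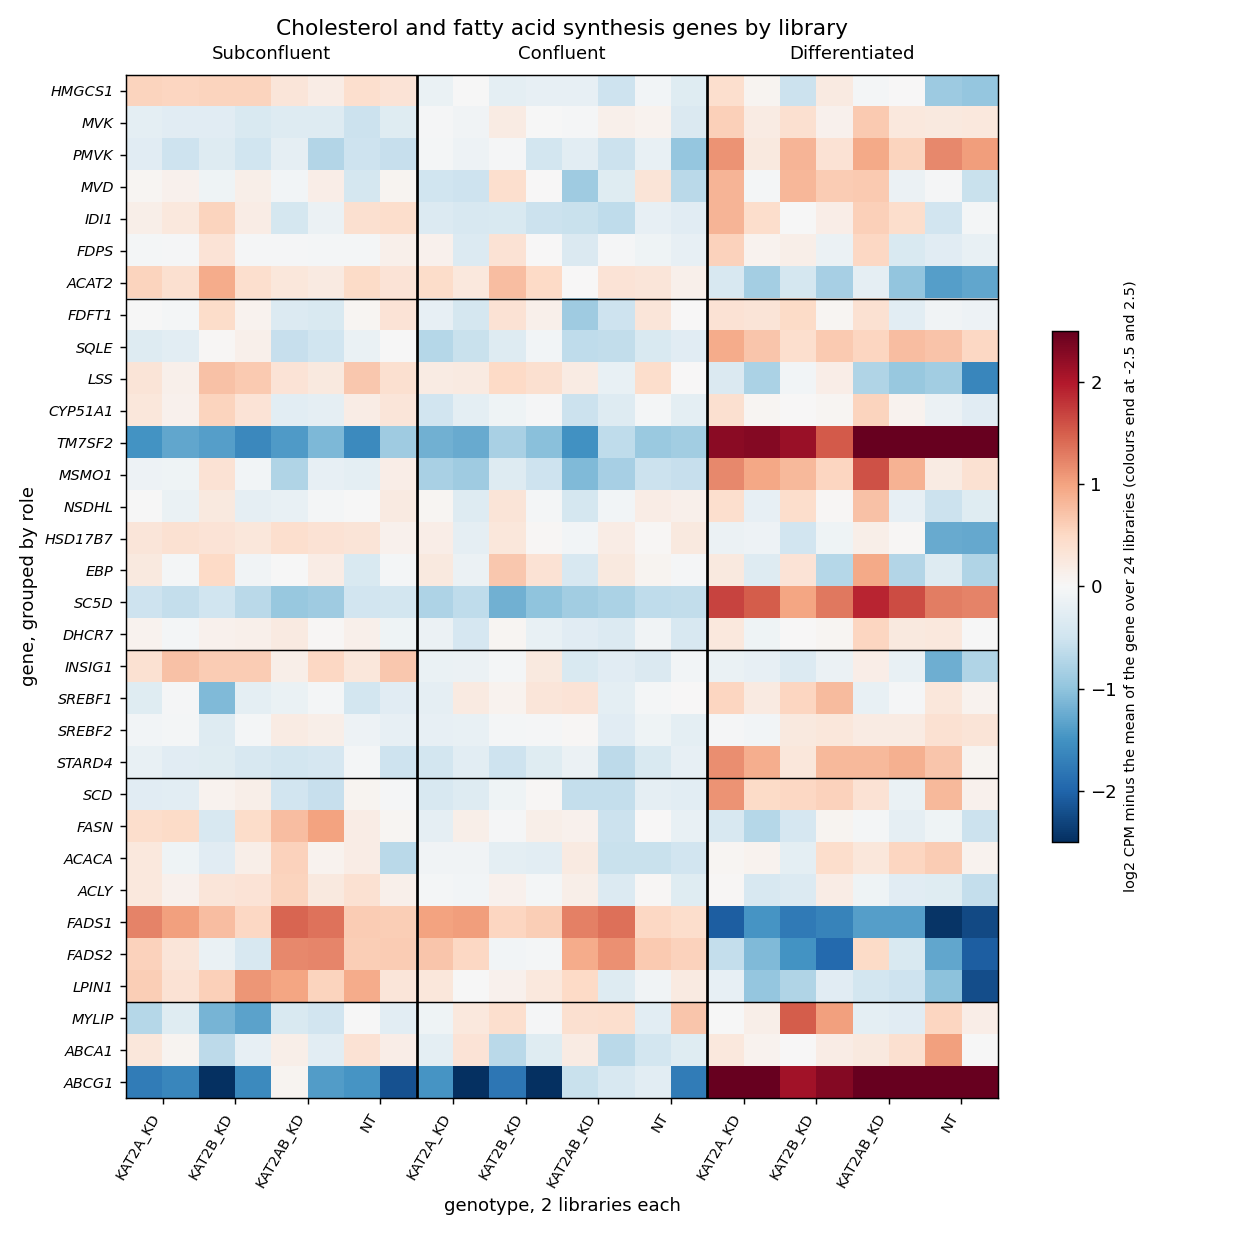
Log2 CPM of each of the 32 genes (down the page, grouped by role) in each of the 24 libraries (across, 2 per genotype and stage), less the gene's mean over all libraries; red is above and blue below that mean. The Differentiated columns stand apart, with TM7SF2, SC5D and ABCG1 high and FADS1 low in every genotype, and in the NT columns of that stage HMGCS1, HSD17B7 and INSIG1 are lowest.

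In NT cells, the Differentiated stage moved these genes in both directions. Genes of single steps and the exporter ABCG1 rose by up to 26.5-fold, while the desaturases FADS1 and FADS2, the phosphatidate phosphatase LPIN1 and the thiolase ACAT2 fell. Compared with Confluent, 11 of the 32 rose and 8 fell (edgeR quasi-likelihood test, adjusted p under 0.05), where 24.3% of all tested genes rose and 26.1% fell. The median log2 change of the 32 was -0.037, and that of all tested genes -0.01. Compared with Subconfluent, 8 rose and 10 fell, where 24% of all genes rose and 26.5% fell, with a median of -0.19 against -0.032 over all genes. The members' counts are near these shares of all genes. Below, a call is followed by the libraries without which it did not hold. Where none are named, it held without any 1 of the compared libraries. The share of calls over all genes lost without 1 library is not given.

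ABCG1, which exports cholesterol to lipoprotein particles, had 1.12 and 0.687 CPM in the Subconfluent libraries of NT, 2.59 and 0.925 in Confluent and 52.9 and 39.6 in Differentiated. Both Differentiated libraries lay far above the other 4, and the log2 change against Confluent was 4.73 ± 0.49 (SE, adjusted p = 1.67e-07). TM7SF2, a sterol reductase of the endoplasmic reticulum and nuclear envelope, was at 19.3 and 31.4, 30.4 and 31.7, and 393 and 416 CPM over the 3 stages, and the Differentiated libraries again did not overlap the rest (log2 3.70 ± 0.29, adjusted p = 3.34e-09).
SC5D, the sterol desaturase near the end of the pathway, was at 55.3 and 55.6, 49.5 and 50.2, and 187 and 180 CPM (log2 1.88 ± 0.17, adjusted p = 2.60e-08). PMVK, which phosphorylates mevalonate phosphate, was at 18.2 and 17.5, 23 and 13.3, and 60.2 and 53.7 CPM (log2 1.65 ± 0.30, adjusted p = 0.000111). For both genes the Differentiated libraries were above all others of NT.

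FADS1 and FADS2, the front-end desaturases that make long polyunsaturated fatty acids, fell most. FADS1 had 61.3 and 60.1 CPM in the Subconfluent libraries of NT, 55.8 and 53.2 in Confluent and 7.18 and 8.2 in Differentiated, a fall of 7.09-fold against Confluent (log2 -2.82 ± 0.19, adjusted p = 6.41e-10). FADS2 was at 73.6 and 74.7, 76 and 71.6, and 19.5 and 11.6 CPM (log2 -2.24 ± 0.27, adjusted p = 1.16e-06). The 2 genes lie on opposite strands and share 490 exonic bases in GENCODE v29. The strand setting of the counting is not given in the sources used here, so reads there may be shared, and their levels are uncertain to that extent. LPIN1 was at 70.5 and 45.7, 34.9 and 43.1, and 18.1 and 7.92 CPM (log2 -1.58 ± 0.36, adjusted p = 0.00103). ACAT2, the cytosolic acetyl-CoA acetyltransferase that starts the pathway, was at 275 and 251, 242 and 217, and 76.3 and 80.4 CPM (log2 -1.55 ± 0.25, adjusted p = 3.29e-05). ACAT2 overlaps TCP1 by 397 and SOD2 by 1141 exonic bases on the other strand, and TCP1 fell in the same comparison (log2 -1.41). In all 4 of these genes both Differentiated libraries were below the other 4 libraries of NT.

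Other members called in NT between Differentiated and Confluent were SQLE, squalene epoxidase (log2 0.94), MSMO1, a sterol methyl oxidase (0.85), ACACA, acetyl-CoA carboxylase (0.91), SCD, stearoyl-CoA desaturase (0.74), ABCA1 (0.99), the sterol carrier STARD4 (0.71) and SREBF2 (0.52), all higher. LSS, lanosterol synthase (-1.43), HSD17B7, a sterol ketone reductase (-1.41), INSIG1 (-0.76) and HMGCS1, which makes HMG-CoA (-0.75), were lower. The MSMO1 call did not hold without NT Confluent 2 (adjusted p = 0.0525), nor did that of SREBF2 (0.0878), which was also lost without the filter on low counts (0.0713). ACACA was lost without NT Confluent 1 (adjusted p = 0.0904), Confluent 2 (0.0646) or Differentiated 1 (0.18), and SCD without the same libraries (0.0748, 0.0862 and 0.3). ABCA1 was lost without NT Confluent 1 (0.0873) or Differentiated 1 (0.394), and STARD4 without the same libraries (0.11 and 0.272). INSIG1 was lost without NT Confluent 2 (0.0673) or Differentiated 1 (0.111), and HMGCS1 without NT Confluent 1 (0.0724) or Differentiated 2 (0.0635).
Against Subconfluent, HMGCS1 (log2 -1.32, adjusted p = 5.75e-05) and INSIG1 (-1.45, adjusted p = 1.28e-05) fell with a call that held without any 1 library. IDI1, isopentenyl diphosphate isomerase, also fell (-0.66, lost without NT Differentiated 1, adjusted p = 0.127). ACLY, ATP citrate lyase, fell by 0.71 (lost without NT Subconfluent 1, 0.106, or Differentiated 2, 0.153). MVK, mevalonate kinase, rose by 0.67 (lost without NT Subconfluent 1, 0.0774). SREBF2 rose by 0.51 (lost without NT Differentiated 1, 0.0519, or Subconfluent 2, 0.0785, or without the filter, 0.0786), and STARD4 by 0.69 (lost without the same libraries, 0.301 and 0.192).

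**Figure D2:**
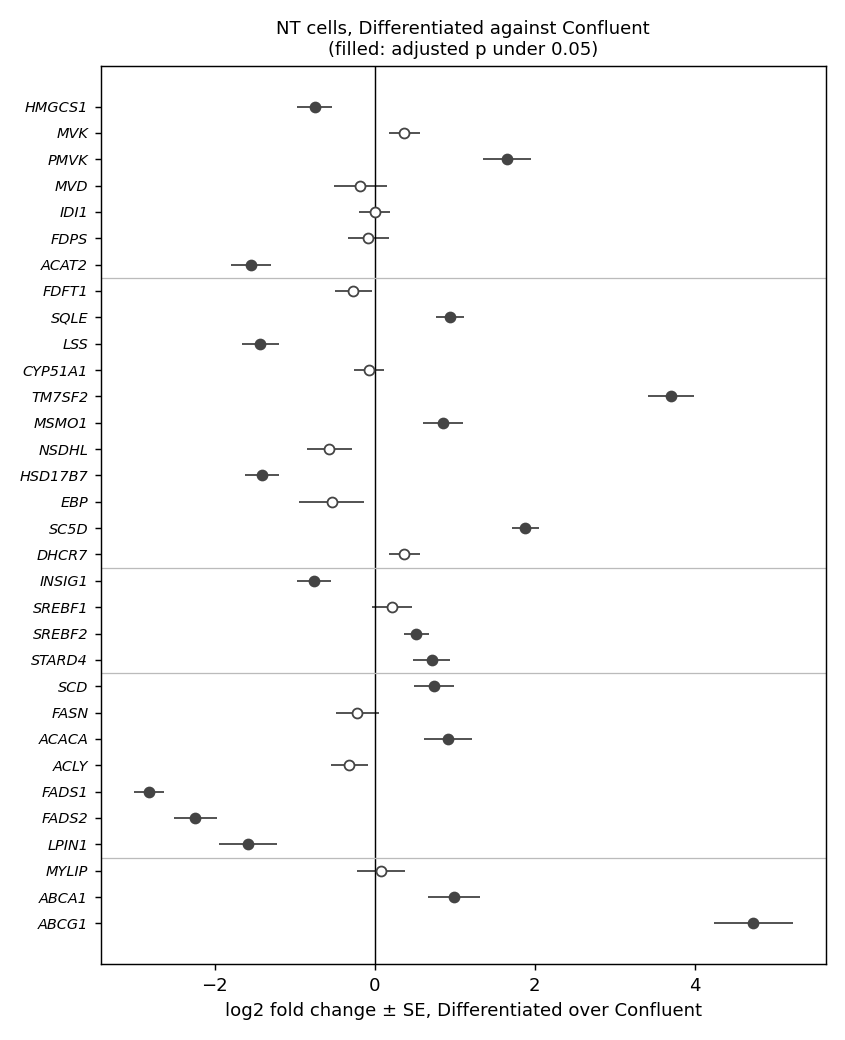
Log2 fold change of each of the 32 genes in NT cells at the Differentiated stage over the Confluent stage (x axis), with bars of 1 SE from the edgeR fit; filled points passed an adjusted p under 0.05. Filled points lie on both sides of 0, from FADS1 at -2.82 to ABCG1 at 4.73.

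From Subconfluent to Confluent, few members changed. In NT, KAT2A_KD and KAT2AB_KD cells edgeR called 0 of the 32, where it called 0.901%, 0.235% and 0.609% of all genes. Members with an unadjusted p under 0.05 numbered 4, 5 and 5. Here and below, counts at an unadjusted p were made for the members only, without a share of all genes. DESeq2 called 2, 0 and 1 members, and 385, 146 and 244 of all genes. In KAT2B_KD cells, where 1.61% of all genes were called, IDI1 fell and MYLIP rose. IDI1 was at 61.7 and 54.8 CPM in Confluent and 117 and 90.7 in Subconfluent KAT2B_KD cells, and the stages did not overlap (log2 -0.83, adjusted p = 0.0287). That call was lost without KAT2B_KD Subconfluent 1 (0.265), Confluent 1 (0.129) or Confluent 2 (0.227). MYLIP was at 7.72 and 5.69 CPM in Confluent and 2.59 and 2.29 in Subconfluent cells (log2 1.46, adjusted p = 0.0236), again without overlap. It was lost without KAT2B_KD Subconfluent 1 (0.154), Subconfluent 2 (0.191), Confluent 1 (0.261) or Confluent 2 (0.0559). Both calls were lost in a fit of only those 2 groups (0.144 for IDI1 and 0.13 for MYLIP).

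In the knockdown cells, more members rose than fell at the Differentiated stage. Compared with Confluent, 12 of the 32 rose and 4 fell in KAT2A_KD cells, with a median log2 change of 0.36, where 21.4% of all genes rose and 21.7% fell. In KAT2B_KD cells 9 rose and 3 fell (median 0.14), where 19.3% of all genes rose and 20.3% fell. In KAT2AB_KD cells 13 rose and 4 fell (median 0.45), where 22.6% of all genes rose and 23.6% fell. The medians over all genes were -0.0066, 0 and -0.017. Of the 11 squalene and sterol genes, 6 rose and 1 fell in KAT2A_KD cells, 4 rose and 0 fell in KAT2B_KD cells, 7 rose and 1 fell in KAT2AB_KD cells, and 4 rose and 2 fell in NT cells. ABCG1, TM7SF2, SC5D, MSMO1 and SQLE rose and FADS1 fell in all 3 knockdown genotypes, each without regard to which 1 library was left out. The SQLE call in KAT2B_KD cells was lost in a fit of only the 2 groups compared (adjusted p = 0.0569). Such fits of KAT2AB_KD cells also lost DHCR7 (0.091), CYP51A1 (0.0911), FDFT1 (0.122), MVD (0.0811), SCD (0.188), FADS2 (0.0591) and ACAT2 (0.122).
MSMO1 rose by 1.95 log2 in KAT2A_KD, 1.11 in KAT2B_KD and 2.24 in KAT2AB_KD cells, and IDI1 by 1.03, 0.54 and 1.12, against 0.85 and -0.002 in NT. The KAT2B_KD call of IDI1 was lost without KAT2B_KD Confluent 1 (adjusted p = 0.0563), Confluent 2 (0.137) or Differentiated 2 (0.136), without the filter on low counts (0.0647), or in a fit of only the 2 groups (0.0929). CYP51A1, the lanosterol demethylase, rose by 0.60 in KAT2A_KD cells (lost without KAT2A_KD Confluent 1, 0.135, or Differentiated 1, 0.155) and by 0.76 in KAT2AB_KD cells. DHCR7, which reduces 7-dehydrocholesterol, rose in KAT2AB_KD cells (log2 0.71, adjusted p = 0.00521). FDFT1, squalene synthase, rose by 0.65 in KAT2A_KD cells (lost without KAT2A_KD Confluent 2, 0.17, Differentiated 1, 0.0826, or Differentiated 2, 0.0582) and by 0.79 in KAT2AB_KD cells (lost without KAT2AB_KD Confluent 1, 0.107, or Differentiated 1, 0.129). MVD, mevalonate diphosphate decarboxylase, rose by 0.97 in KAT2A_KD cells (lost without KAT2A_KD Confluent 1, 0.0963, Confluent 2, 0.0995, or Differentiated 1, 0.361) and by 0.88 in KAT2AB_KD cells (lost without KAT2AB_KD Confluent 1, 0.245, or Differentiated 1, 0.346).
The carrier STARD4 rose by 1.40 in KAT2A_KD, 0.99 in KAT2B_KD (lost without KAT2B_KD Differentiated 2, adjusted p = 0.0503) and 1.22 in KAT2AB_KD cells. PMVK rose by 0.85 in KAT2A_KD (lost without KAT2A_KD Confluent 1, 0.0836, Confluent 2, 0.103, or Differentiated 1, 0.431), by 0.85 in KAT2B_KD (lost without KAT2B_KD Confluent 2, 0.172, or Differentiated 1, 0.174) and by 1.16 in KAT2AB_KD cells. SCD rose by 1.2 in KAT2A_KD and by 0.71 in KAT2AB_KD cells (lost without KAT2AB_KD Confluent 1, 0.094, Confluent 2, 0.0996, or Differentiated 1, 0.213). MYLIP rose by 1.06 in KAT2B_KD cells (lost without KAT2B_KD Confluent 2, 0.0812, or Differentiated 1, 0.0744).
Among the genes that fell, FADS1 had -2.77, -2.29 and -2.7 in KAT2A_KD, KAT2B_KD and KAT2AB_KD cells, and FADS2 -1.43, -1.63 and -0.92 (KAT2AB_KD lost without KAT2AB_KD Differentiated 2, 0.116). ACAT2 had -0.98, -1.27 and -0.75, lost in KAT2A_KD without KAT2A_KD Differentiated 2 (0.0543) and in KAT2AB_KD without KAT2AB_KD Confluent 2 (0.129) or Differentiated 2 (0.228). LSS fell by 0.77 in KAT2A_KD (lost without KAT2A_KD Differentiated 2, 0.151) and by 0.87 in KAT2AB_KD cells (lost without KAT2AB_KD Confluent 1, 0.0589).

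Against NT at the Differentiated stage, the knockdown cells had higher levels of several cholesterol synthesis genes. HMGCS1 and HSD17B7 were called higher in all 3 genotypes, IDI1 in KAT2A_KD and KAT2AB_KD, LSS in KAT2B_KD, and MSMO1, INSIG1, FADS1 and FADS2 in KAT2AB_KD. ABCG1 and TM7SF2 were called lower in KAT2B_KD. In KAT2A_KD cells 3 of the 32 were higher and 0 lower, where 0.920% of all genes were called higher and 0.298% lower. In KAT2B_KD cells 3 were higher and 2 lower, where 1.67% of all genes were called higher and 3.18% lower, and in KAT2AB_KD cells 7 were higher and 0 lower, where 1.57% were called higher and 1.17% lower. Members with an unadjusted p under 0.05 numbered 16, 12 and 13. DESeq2 called 6, 8 and 10 members, and 488, 1064 and 739 of all genes. The median log2 change of the 32 was 0.45, 0.29 and 0.36, where the median of all genes was 0.0085, 0.019 and 0. The 3 comparisons share the same 2 NT libraries. Without 1 library, the count fell to 0 in KAT2A_KD (without KAT2A_KD 1, NT 1 or NT 2), to 1 in KAT2B_KD without KAT2B_KD 2, 2 without NT 1 and 0 without NT 2, and to 3 in KAT2AB_KD without KAT2AB_KD 1 and 2 without NT 1 or NT 2. In fits of only the 2 groups compared, HMGCS1 stayed called in KAT2A_KD, LSS and ABCG1 in KAT2B_KD, and FADS2 in KAT2AB_KD. The other calls against NT at this stage were lost in those fits, with adjusted p of 0.0714 and 0.0834 in KAT2A_KD, 0.136 to 0.263 in KAT2B_KD and 0.0565 to 0.34 in KAT2AB_KD. Those fits called 109, 395 and 122 of all genes, where the fit of all groups called 192, 764 and 431.

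Both knockdown libraries lay above both NT libraries at this stage for 17 members in KAT2A_KD cells, 16 in KAT2B_KD cells and 15 in KAT2AB_KD cells. Over all tested genes this held for 22.6%, 20.6% and 21.9%. Both lay below both NT libraries for 4, 4 and 5 members, where this held for 22.1%, 22.7% and 19.7% of all genes. At the earlier stages members lay on both sides of NT, in unequal numbers in some groups. At Subconfluent, 7 were above and 8 below in KAT2A_KD (17.1% and 18.6% of all genes), 5 and 4 in KAT2B_KD (11.6% and 14.6%), and 8 and 12 in KAT2AB_KD (24.2% and 25.2%). At Confluent, 4 were above and 8 below in KAT2A_KD (20% and 20.8%), 10 and 4 in KAT2B_KD (17.3% and 19.4%), and 2 and 8 in KAT2AB_KD (20.1% and 20.8%). In Confluent KAT2AB_KD cells the 2 above were FADS1 and FADS2. The 8 below were IDI1, FDFT1, SQLE, CYP51A1, MSMO1, NSDHL, SC5D and SCD, and all of these but MSMO1 were also below in Subconfluent KAT2AB_KD cells. The summed level of 6 markers of differentiated keratinocytes was 26900 and 13900 CPM in KAT2A_KD, 25100 and 16900 in KAT2B_KD and 23100 and 15000 in KAT2AB_KD libraries, against 43100 and 33500 in NT libraries, so the sums of the knockdown libraries were all lower. In KAT2A_KD cells none of the 6 passed the test (KRT1 log2 -1.13, adjusted p = 0.0609, and IVL 0.21, 0.819). In KAT2B_KD cells the cornified envelope genes LOR (log2 -4.56) and IVL (-1.63) were called lower, as was FLG (-3.01, lost without KAT2B_KD 1, adjusted p = 0.143, or NT 1, 0.079). The basal regulator TP63 was called higher there (1.13, adjusted p = 0.000976). The other basal markers were not called and went both ways. KRT5 had 0.48 (0.325), KRT14 0.16 (0.823), COL17A1 -0.26 (0.772) and ITGB4 -0.55 (0.189). In KAT2AB_KD cells KRT1 was called lower (-1.87), and IVL had 0.06 (0.954). The melanocyte marker MITF was called higher in KAT2AB_KD cells (1.60, adjusted p = 0.0496). That call was lost without KAT2AB_KD 1, KAT2AB_KD 2, NT 1 or NT 2. PMEL, of the same list, had -1.03 (0.337) there. The melanocyte markers summed to 12.6 and 8.59 CPM in KAT2AB_KD and 9.29 and 10.7 in NT libraries, so the sums overlapped. The part of these markers in the lipid gene results was not tested.

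**Figure D3:**
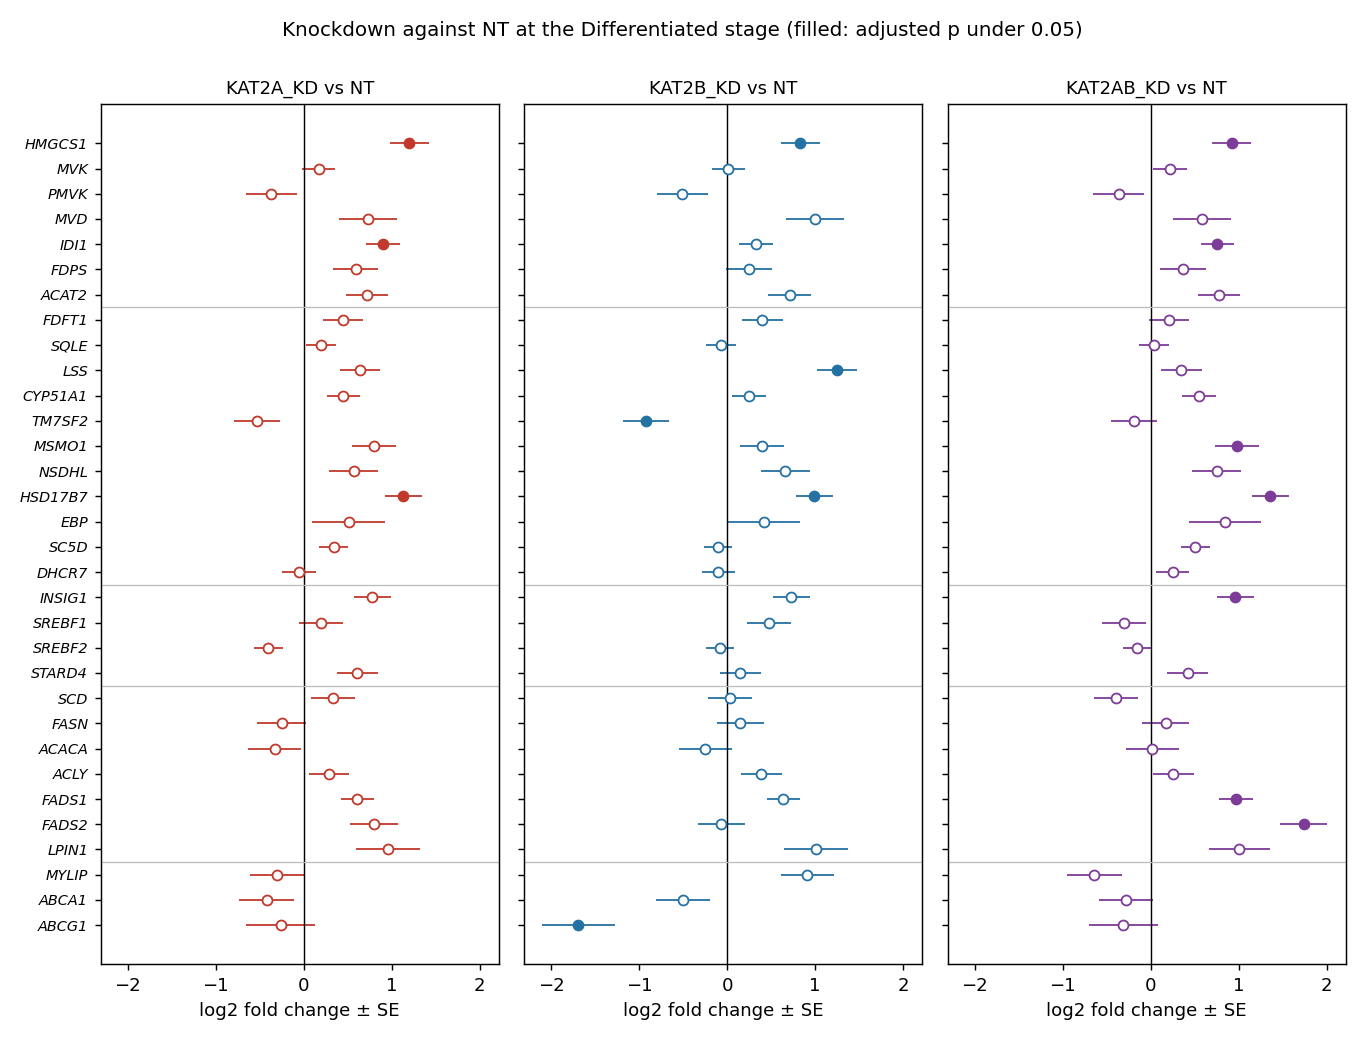
Log2 fold change of each of the 32 genes at the Differentiated stage in KAT2A_KD, KAT2B_KD and KAT2AB_KD over NT cells (3 panels), with bars of 1 SE; filled points passed an adjusted p under 0.05. HMGCS1 and HSD17B7 are filled and right of 0 in all 3 panels, FADS2 reaches 1.74 in KAT2AB_KD, and ABCG1 reaches -1.69 in KAT2B_KD.

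Among the mevalonate and isoprenoid genes, HMGCS1 was at 691 and 543 CPM in Differentiated KAT2A_KD cells, 353 and 605 in KAT2B_KD, 496 and 522 in KAT2AB_KD, and 274 and 263 in NT. All 6 knockdown libraries were above both NT libraries. The log2 change was 1.2 ± 0.22 in KAT2A_KD (adjusted p = 0.0107), 0.83 ± 0.22 in KAT2B_KD (0.0334) and 0.92 ± 0.22 in KAT2AB_KD (0.0304). In KAT2A_KD the call was lost without KAT2A_KD 1 (adjusted p = 0.122), NT 1 (0.077) or NT 2 (0.149), and in KAT2B_KD without KAT2B_KD 2 (0.335), NT 1 (0.146) or NT 2 (0.194). In KAT2AB_KD it was lost without KAT2AB_KD 1 (0.0812), KAT2AB_KD 2 (0.0893), NT 1 (0.141) or NT 2 (0.231).
IDI1 was at 143 and 109 CPM in KAT2A_KD, 79.2 and 90 in KAT2B_KD, 120 and 109 in KAT2AB_KD, and 57.4 and 77.7 in NT, and again no knockdown library overlapped NT. The change was 0.90 ± 0.19 in KAT2A_KD (adjusted p = 0.024) and 0.76 ± 0.19 in KAT2AB_KD (0.0373), and 0.33 ± 0.19 in KAT2B_KD did not pass (0.392). It was lost in KAT2A_KD without KAT2A_KD 1 (0.218), NT 1 (0.215) or NT 2 (0.0675), and in KAT2AB_KD without KAT2AB_KD 1 (0.135), KAT2AB_KD 2 (0.065), NT 1 (0.276) or NT 2 (0.0636). ACAT2 had 100 to 169 CPM in the 6 knockdown libraries and 76.3 to 80.4 in NT, and its changes of 0.72, 0.71 and 0.78 in KAT2A_KD, KAT2B_KD and KAT2AB_KD had adjusted p of 0.172, 0.106 and 0.103. MVD stood at 0.73, 1.0 and 0.58 (adjusted p = 0.347, 0.0956 and 0.432). FDPS, farnesyl diphosphate synthase, had 0.59, 0.25 and 0.37, MVK 0.17, 0.013 and 0.22, and PMVK -0.37, -0.51 and -0.36, none past the threshold. Counts of the near copy FDPSP2 were 0.533 to 0.583 times those of FDPS in every library, so FDPS counts are uncertain.

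Among the squalene and sterol genes, HSD17B7 was at 14.7 and 14.8 CPM in Differentiated KAT2A_KD cells, 11.6 and 15 in KAT2B_KD, 18 and 16.6 in KAT2AB_KD, and 6.75 and 6.69 in NT. NT libraries at the earlier stages were at 20.2 and 17.5 CPM in Subconfluent and 16.5 and 19.2 in Confluent, so the low values belonged to the Differentiated NT libraries. The log2 change against NT was 1.13 ± 0.21 in KAT2A_KD (adjusted p = 0.0101), 0.99 ± 0.21 in KAT2B_KD (0.00811) and 1.36 ± 0.21 in KAT2AB_KD (0.00137). The KAT2AB_KD call held without any 1 library, but not in a fit of those 2 groups alone (adjusted p = 0.0565). In KAT2A_KD it was lost without KAT2A_KD 1 (0.0637), NT 1 (0.0722) or NT 2 (0.123), and in KAT2B_KD without KAT2B_KD 2 (0.0834), NT 1 (0.0591) or NT 2 (0.0693). Counts of the near copy HSD17B7P2 were 0.775 to 0.936 times those of HSD17B7 in every library, and HSD17B7P2 had 1.04, 0.91 and 1.2 in the same comparisons. Reads of these 2 cannot be told apart in the table, so both are uncertain.
MSMO1 was at 1310 and 1100 CPM in KAT2A_KD, 1000 and 825 in KAT2B_KD, 1710 and 1030 in KAT2AB_KD, and 653 and 737 in NT. All 6 knockdown libraries were higher than NT, and the change passed in KAT2AB_KD (log2 0.98 ± 0.25, adjusted p = 0.0426; lost without KAT2AB_KD 1, 0.293, NT 1, 0.216, or NT 2, 0.178). It was 0.80 in KAT2A_KD (adjusted p = 0.139) and 0.40 in KAT2B_KD (0.444). LSS was at 95.3 and 70.9 CPM in KAT2A_KD, 117 and 138 in KAT2B_KD, 73.2 and 63.5 in KAT2AB_KD, and 67.1 and 39.8 in NT. The KAT2B_KD libraries were the highest, and only there did the change pass (1.25 ± 0.23, adjusted p = 0.00344; lost without NT 2, 0.0828); it was 0.64 in KAT2A_KD (0.212) and 0.35 in KAT2AB_KD (0.5).
TM7SF2 was at 278 and 283 CPM in KAT2A_KD, 260 and 167 in KAT2B_KD, 365 and 342 in KAT2AB_KD, and 393 and 416 in NT, with all 6 knockdown libraries below NT. The KAT2B_KD change passed (-0.92 ± 0.26, adjusted p = 0.0446), and was lost without KAT2B_KD 2 (0.218), NT 1 (0.119) or NT 2 (0.167). Changes of -0.53 in KAT2A_KD (0.393) and -0.19 in KAT2AB_KD (0.793) did not pass. SC5D had 0.34, -0.10 and 0.51, CYP51A1 0.45, 0.25 and 0.55, and NSDHL, a sterol dehydrogenase, 0.57, 0.66 and 0.75 in KAT2A_KD, KAT2B_KD and KAT2AB_KD, none past the threshold. The sterol isomerase EBP spread widely, with 151 and 484 CPM in the KAT2AB_KD libraries, and had 0.51, 0.42 and 0.85. SQLE (0.20, -0.072 and 0.042), DHCR7 (-0.053, -0.10 and 0.25) and FDFT1 (0.45, 0.40 and 0.21) did not pass either.

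**Figure D4:**
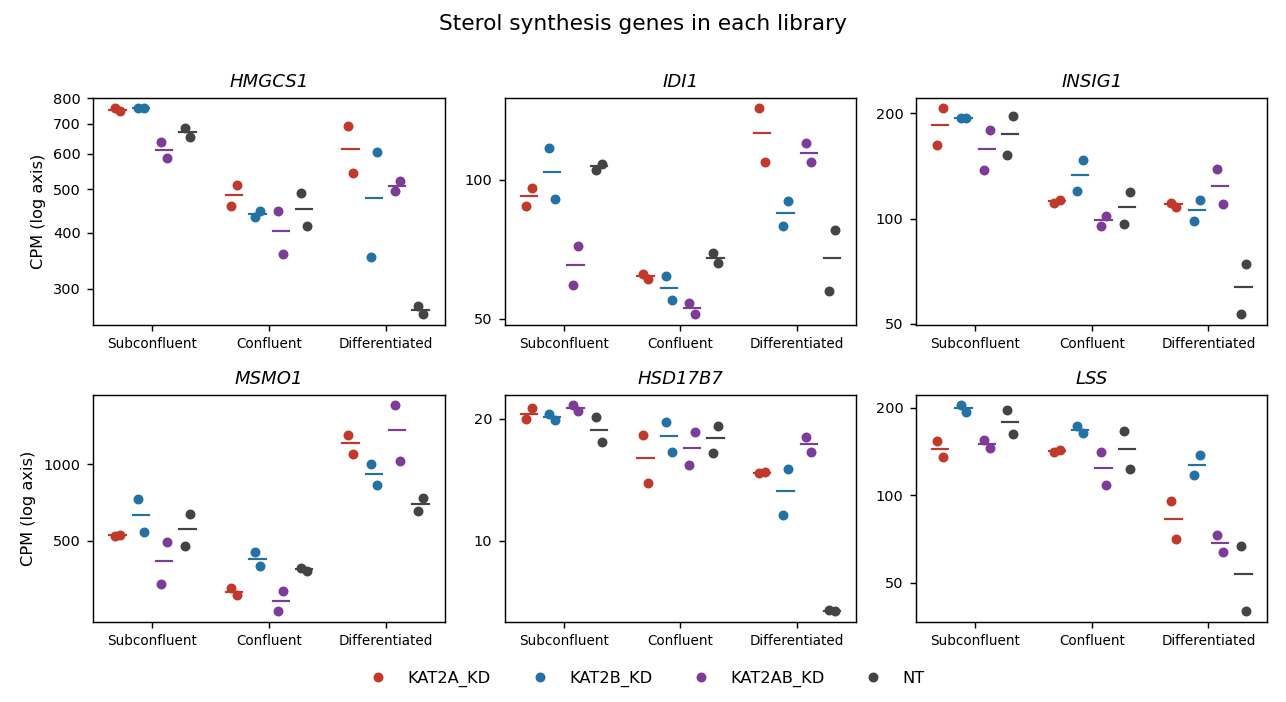
Level in CPM (log axis) of HMGCS1, IDI1, INSIG1, MSMO1, HSD17B7 and LSS in each library by stage; points are libraries, bars the mean of 2, and colours the genotype. At the Differentiated stage the NT points of HSD17B7, at 6.75 and 6.69, lie below all 6 knockdown points, which run from 11.6 to 18.

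Among the regulators, INSIG1, the endoplasmic reticulum protein that retains SREBP precursors and is itself an SREBP target, was at 111 and 108 CPM in Differentiated KAT2A_KD cells, 98.3 and 113 in KAT2B_KD, 139 and 110 in KAT2AB_KD, and 53.3 and 74 in NT. No knockdown library overlapped NT. The change passed in KAT2AB_KD (log2 0.96 ± 0.21, adjusted p = 0.0196; lost without KAT2AB_KD 1, 0.117, or NT 1, 0.197), and was 0.78 ± 0.21 in KAT2A_KD (0.0806) and 0.73 ± 0.21 in KAT2B_KD (0.0534). SREBF2 transcripts were at 187 and 183 CPM in KAT2A_KD, 227 and 234 in KAT2B_KD, 219 and 220 in KAT2AB_KD, and 248 and 240 in NT. All 6 knockdown libraries were below NT, by -0.40, -0.082 and -0.15, with no call (adjusted p = 0.259, 0.848 and 0.717). SREBF1 was at 72.8 and 58.8, 72.7 and 87.4, and 44.1 and 49 CPM in KAT2A_KD, KAT2B_KD and KAT2AB_KD, against 61.1 and 53.4 in NT, and its changes of 0.20, 0.48 and -0.30 did not pass (adjusted p = 0.816, 0.308 and 0.622). SREBF1 shares 556 exonic bases with RAI1 on the other strand. STARD4 was at 135 and 114, 74 and 106, and 106 and 112 CPM, against 98.8 and 63.8 in NT, with 0.61, 0.15 and 0.42 (adjusted p = 0.225, 0.798 and 0.394).

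Among the fatty acid genes, the desaturases of polyunsaturated fats were higher in KAT2AB_KD cells. FADS1 was at 15.1 in both Differentiated KAT2AB_KD libraries, 9.42 and 14.1 CPM in KAT2A_KD, 11.6 and 12.4 in KAT2B_KD, and 7.18 and 8.2 in NT. All 6 knockdown libraries were above NT, and the KAT2AB_KD change passed (0.97 ± 0.19, adjusted p = 0.0119; lost without NT 1, 0.0887, or NT 2, 0.0634), while 0.61 in KAT2A_KD (0.141) and 0.64 in KAT2B_KD (0.0646) did not. FADS2 was at 67.1 and 37.2 CPM in KAT2AB_KD, 31.8 and 22.5 in KAT2A_KD, 17.2 and 12.6 in KAT2B_KD, and 19.5 and 11.6 in NT. The KAT2B_KD and NT libraries overlapped and the KAT2AB_KD ones stood above all others. Its change was 1.74 ± 0.27 in KAT2AB_KD (3.34-fold, adjusted p = 0.00149; lost without NT 2, 0.0505), 0.80 in KAT2A_KD (0.161) and -0.067 in KAT2B_KD (0.939).
FADS1 was also the only member called against NT before differentiation, in KAT2AB_KD cells, where 2.7% of all genes were called at Subconfluent and 2.28% at Confluent. It was at 108 and 101 CPM in KAT2AB_KD and 61.3 and 60.1 in NT at Subconfluent (0.78 ± 0.17, adjusted p = 0.0162), and at 93.6 and 102 in KAT2AB_KD and 55.8 and 53.2 in NT at Confluent (0.85 ± 0.17, 0.00913). Neither stage showed overlap. The Subconfluent call was lost without KAT2AB_KD 1 (0.149), KAT2AB_KD 2 (0.0791), NT 1 (0.109) or NT 2 (0.154), and the Confluent call without KAT2AB_KD 2 (0.0503), NT 1 (0.0911) or NT 2 (0.115), or in a fit of only the 2 groups (0.0664).
The genes of fatty acid synthesis proper did not pass against NT at the Differentiated stage. SCD was at 5100 and 3270 CPM in KAT2A_KD, 3330 and 3480 in KAT2B_KD, 3010 and 2080 in KAT2AB_KD, and 4110 and 2530 in NT, so the groups overlapped. FASN, fatty acid synthase, ran from 284 to 490 CPM in the 6 knockdown libraries and from 321 to 436 in NT, and ACACA from 127 to 216 and from 160 to 233. ACLY had 0.29, 0.39 and 0.26, and LPIN1 0.96, 1.01 and 1.01 in KAT2A_KD, KAT2B_KD and KAT2AB_KD (LPIN1 adjusted p = 0.221, 0.115 and 0.147). LPIN1 ran from 18.9 to 31.9 CPM in the knockdown libraries, above the NT libraries at 18.1 and 7.92.

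Among the LXR targets, ABCG1 was at 37.7 and 39.6 CPM in Differentiated KAT2A_KD cells, 13.4 and 15.2 in KAT2B_KD, 31.6 and 43.1 in KAT2AB_KD, and 52.9 and 39.6 in NT. The KAT2B_KD libraries alone lay below all others, and the change there passed (-1.69 ± 0.41, adjusted p = 0.019). That call was lost without KAT2B_KD 1 (0.137), KAT2B_KD 2 (0.0723), NT 1 (0.148) or NT 2 (0.0538). Changes of -0.26 in KAT2A_KD (0.865) and -0.31 in KAT2AB_KD (0.781) did not pass. MYLIP, which marks lipoprotein receptors for degradation, was at 5.73 and 6.38, 16.4 and 11.8, and 4.86 and 4.72 CPM in KAT2A_KD, KAT2B_KD and KAT2AB_KD, against 8.41 and 6.51 in NT. Its level was highest in KAT2B_KD, with 0.91 ± 0.30 against NT (0.0904), and it was -0.30 in KAT2A_KD (0.772) and -0.64 in KAT2AB_KD (0.325). ABCA1 was at 26.7 and 23.4, 22.4 and 25.3, and 26.3 and 29.1 CPM, against 45.3 and 21.9 in NT, whose 2 libraries enclosed all 6 knockdown values (-0.42, -0.50 and -0.28; adjusted p = 0.639, 0.439 and 0.738).

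**Figure D5:**
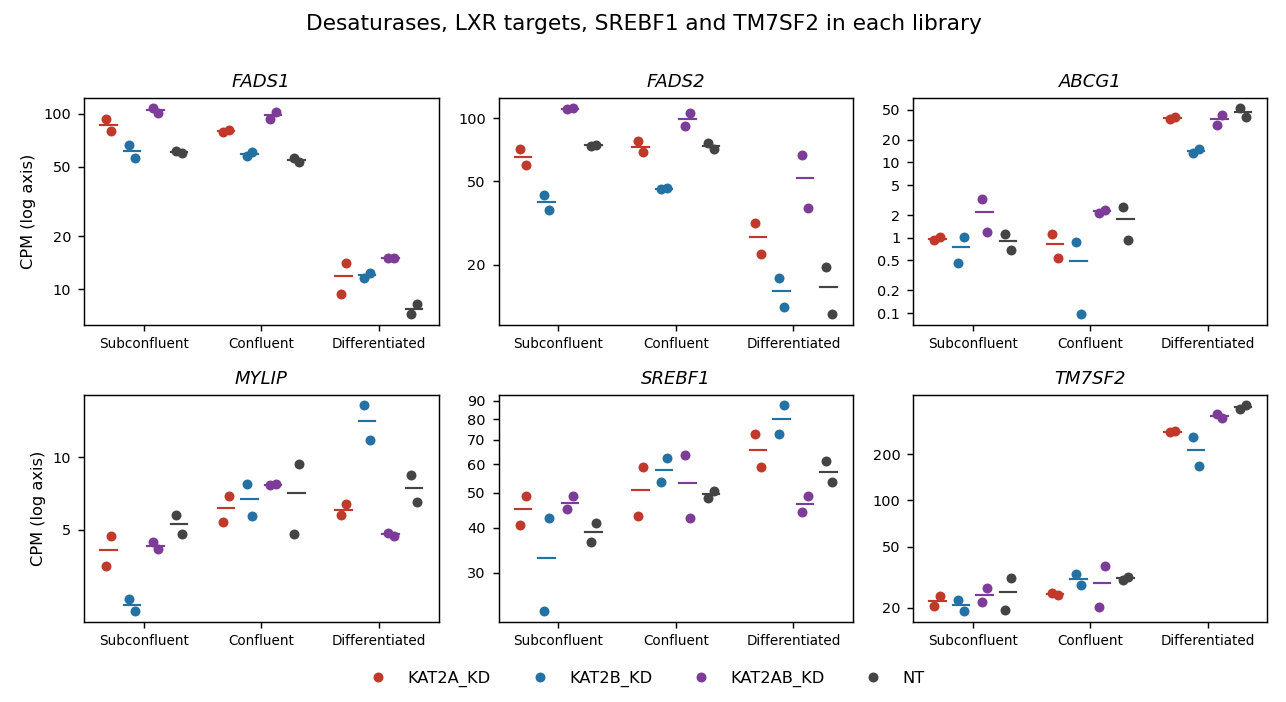
Level in CPM (log axis) of FADS1, FADS2, ABCG1, MYLIP, SREBF1 and TM7SF2 in each library by stage; points are libraries, bars the mean of 2, and colours the genotype. FADS2 is highest in KAT2AB_KD at every stage, and at the Differentiated stage ABCG1 in KAT2B_KD, at 13.4 and 15.2, lies below all other points of that stage.

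Before differentiation, few members were called against NT. In KAT2A_KD cells edgeR called 0 of 32 at Subconfluent and at Confluent, where it called 0.343% and 0.647% of all genes, with 1 and 1 members at an unadjusted p under 0.05 and 0 and 1 by DESeq2. In KAT2B_KD cells it also called 0 at both stages, where it called 0.0888% and 0.463% of all genes, with 3 and 3 members at an unadjusted p under 0.05 and 0 and 0 by DESeq2. Over all genes DESeq2 called 133 and 188 in KAT2A_KD, 66 and 152 in KAT2B_KD, and 733 and 601 in KAT2AB_KD cells. The median log2 change of the 32 was -0.028 and -0.026 in KAT2A_KD and 0.092 and 0.14 in KAT2B_KD cells. In KAT2AB_KD cells, with FADS1 the 1 call at each stage, the medians were -0.073 and -0.082, 11 and 2 members had an unadjusted p under 0.05, and DESeq2 called 2 and 2. IDI1 had -0.70 (adjusted p = 0.0517), FDFT1 -0.56 (0.255), CYP51A1 -0.49 (0.222) and SQLE -0.44 (0.209) at Subconfluent, none of which passed.

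Set against each other, KAT2AB_KD and KAT2B_KD cells differed in FADS2 at all 3 stages, while KAT2A_KD cells differed from KAT2B_KD in MYLIP at Differentiated and from KAT2AB_KD in no member by edgeR. KAT2A_KD and KAT2B_KD cells differed in 0 members at Subconfluent and Confluent, where 0.533% and 0.286% of all genes were called (edgeR). At an unadjusted p under 0.05 there were 4 and 6 members. By DESeq2, which called 129 and 100 of all genes, these genotypes differed in 0 and 0 members. At Differentiated they differed in MYLIP, at 5.73 and 6.38 CPM in KAT2A_KD and 16.4 and 11.8 in KAT2B_KD (log2 -1.22 ± 0.30, adjusted p = 0.0375), where 2.38% of all genes were called. The libraries did not overlap, and the call was lost without KAT2A_KD 1 (0.241), KAT2A_KD 2 (0.132) or KAT2B_KD 1 (0.292), or in a fit of only the 2 groups (0.105). KAT2AB_KD and KAT2A_KD cells differed in 0 members at all 3 stages, where 0%, 0.00635% and 0.317% of all genes were called (edgeR). At an unadjusted p under 0.05 there were 5, 1 and 2 members. By DESeq2, which called 10, 15 and 189 of all genes, these genotypes differed in 0, 0 and 1 members. Without KAT2AB_KD Differentiated 2, 1 member was called at that stage.
Between KAT2AB_KD and KAT2B_KD cells, FADS2 was at 111 and 112 CPM in KAT2AB_KD and 43.1 and 36.6 in KAT2B_KD at Subconfluent (1.48 ± 0.26, adjusted p = 0.00202), 91.6 and 106 against 45.9 and 46.3 at Confluent (1.10 ± 0.26, 0.0312), and 67.1 and 37.2 against 17.2 and 12.6 at Differentiated (1.81 ± 0.27, 0.000238). The libraries never overlapped, and the Subconfluent and Differentiated calls held without any 1 library. The Confluent call was lost without KAT2AB_KD 1 (0.0796), KAT2AB_KD 2 (0.134), KAT2B_KD 1 (0.261) or KAT2B_KD 2 (0.186). At Subconfluent, where 2.61% of all genes were called, FADS1 was the other call (0.77, adjusted p = 0.0176; lost without KAT2AB_KD 1, 0.158, KAT2AB_KD 2, 0.0819, KAT2B_KD 1, 0.075, or KAT2B_KD 2, 0.141).
At Confluent, where 1.61% were called, FADS1 was higher (0.74, adjusted p = 0.0322; lost without KAT2AB_KD 1, 0.095, KAT2AB_KD 2, 0.134, KAT2B_KD 1, 0.292, or KAT2B_KD 2, 0.147). FDFT1 was lower, at 353 and 457 CPM in KAT2AB_KD and 847 and 718 in KAT2B_KD (-0.95, 0.0449; lost without KAT2AB_KD 1, 0.41, KAT2AB_KD 2, 0.0715, KAT2B_KD 1, 0.349, or KAT2B_KD 2, 0.0986).
At Differentiated, 6 members were called between KAT2AB_KD and KAT2B_KD, where 11% of all genes were called. FADS2, ABCG1 (1.38, adjusted p = 0.0323) and SC5D (0.61, 0.021) were higher in KAT2AB_KD, and MYLIP (-1.55, 0.00274), LSS (-0.90, 0.0162) and SREBF1 (-0.78, 0.0468) were lower. FADS2 and MYLIP held without any 1 library. ABCG1 was lost without KAT2AB_KD 2 (0.175), KAT2B_KD 1 (0.196) or KAT2B_KD 2 (0.0711), SC5D without KAT2AB_KD 1 (0.127) or KAT2B_KD 1 (0.239), and LSS without KAT2AB_KD 2 (0.112) or KAT2B_KD 2 (0.0798). SREBF1 was lost without KAT2AB_KD 1 (0.196), KAT2AB_KD 2 (0.115), KAT2B_KD 1 (0.0965) or KAT2B_KD 2 (0.195). The count fell to 3 without KAT2B_KD 1 or KAT2B_KD 2. In fits of only the 2 groups, FADS2 at Subconfluent and FADS2, MYLIP and ABCG1 at Differentiated stayed called, and the other calls between these genotypes were lost (adjusted p of 0.059 to 0.428). Without the filter on low counts FADS1 at Confluent (0.061) and SC5D at Differentiated (0.0833) were lost, and with RLE size factors SREBF1 (0.0514).

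The stage change itself was compared between each knockdown and NT. In KAT2A_KD cells, HSD17B7 was the 1 member whose change from Confluent to Differentiated differed from that in NT (difference 1.28 ± 0.29 log2, adjusted p = 0.043), where 0.616% of all genes were called. That call was lost without any 1 of the 8 libraries, with adjusted p of 0.0551 without KAT2A_KD Confluent 1, 0.24 without Confluent 2, 0.119 without Differentiated 1 and 0.121 without Differentiated 2. Without NT Confluent 1 it was 0.0727, without Confluent 2 0.205, without Differentiated 1 0.119 and without Differentiated 2 0.176. In KAT2AB_KD cells, HSD17B7 (1.44 ± 0.28, adjusted p = 0.0115) and IDI1 (1.12 ± 0.27, 0.0407) differed, where 1.33% of all genes were called. HSD17B7 was lost without KAT2AB_KD Confluent 1 (0.0769), NT Confluent 2 (0.0655) or NT Differentiated 2 (0.0596). IDI1 was lost without KAT2AB_KD Confluent 1 (0.118), Confluent 2 (0.122) or Differentiated 1 (0.125), and without NT Confluent 1 (0.148), Confluent 2 (0.112) or Differentiated 1 (0.185). Without KAT2AB_KD Differentiated 2 the count was 6, and it was 0 without KAT2AB_KD Confluent 1 or NT Confluent 2.
From Subconfluent to Differentiated, 4 members differed between KAT2AB_KD and NT, where 2% of all genes were called. IDI1 had a difference of 1.46 ± 0.27 (adjusted p = 0.00644), with 59.1 and 71.8 CPM at Subconfluent and 120 and 109 at Differentiated in KAT2AB_KD, against 105 and 108 and 57.4 and 77.7 in NT. The gene thus moved up in KAT2AB_KD and down in NT libraries. It was lost without KAT2AB_KD Subconfluent 1 (0.06). MSMO1 differed by 1.40 ± 0.36 (0.0464), HSD17B7 by 1.19 ± 0.28 (0.0332) and SC5D by 0.95 ± 0.23 (0.0386).
MSMO1 was lost without KAT2AB_KD Subconfluent 1 (0.239), Subconfluent 2 (0.0613) or Differentiated 1 (0.188), and without NT Subconfluent 1 (0.0691), Subconfluent 2 (0.187), Differentiated 1 (0.134) or Differentiated 2 (0.0982). HSD17B7 was lost without the same libraries (0.122, 0.124, 0.101, 0.126, 0.0716, 0.094 and 0.113), and so was SC5D (0.163, 0.121, 0.144, 0.11, 0.119, 0.0928 and 0.136). Without KAT2AB_KD Differentiated 2 the count of members that differed was 8, and it was 0 without KAT2AB_KD Subconfluent 1 and 1 without any 1 of the other 6 libraries.
All of these calls were lost in fits of only the compared groups (adjusted p of 0.065 to 0.198). Without the filter on low counts, HSD17B7 in KAT2A_KD from Confluent (0.0884) and HSD17B7 (0.0856) and SC5D (0.119) in KAT2AB_KD from Subconfluent were lost.
Differences in the change from Subconfluent to Confluent are not reported here. The remaining differences in stage change, up to Differentiated, gave 0 calls among the 32 by edgeR. These were KAT2A_KD from Subconfluent to Differentiated (0.463% of all genes called; 9 members at an unadjusted p under 0.05, 2 by DESeq2), KAT2B_KD from Confluent (0.888%; 5 and 0) and KAT2B_KD from Subconfluent (0.330%; 6 and 2). Of all genes, DESeq2 called 211, 356 and 275 in the same order. Without KAT2A_KD Differentiated 2, 1 member was called in KAT2A_KD. In KAT2B_KD from Subconfluent, MYLIP had 2.03 ± 0.44 (adjusted p = 0.0515), and 1 member was called there with a replicate block and 1 without the filter on low counts.

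A wider list of 89 genes of SREBP processing, sterol handling, isoprenoid branches, fatty acid elongation and glycerolipid synthesis was also followed, of which 79 were tested. Calls of these genes were checked only by leaving out each library, and not in fits of only the compared groups or under the other alternatives. In NT cells 26 of the 79 rose and 24 fell at Differentiated against Confluent, where 24.3% of all genes rose and 26.1% fell, and the median log2 change was -0.073 against -0.01 over all genes. The triglyceride enzyme DGAT2 (log2 7.78), the very long chain elongases ELOVL4 (4.18) and ELOVL7 (4.14) and the acyl-CoA synthetase ACSL1 (7.62) rose, while FADS3 (-3.37) and the elongation cycle dehydratase HACD3 (-2.39) fell.
At the Differentiated stage against NT, 1 rose and 2 fell in KAT2A_KD cells, 2 rose and 5 fell in KAT2B_KD cells, and 3 rose and 1 fell in KAT2AB_KD cells. Over all genes 0.920% rose and 0.298% fell, 1.67% rose and 3.18% fell, and 1.57% rose and 1.17% fell in the same comparisons. HACD3 was higher in all 3, at 23.3 and 26.2 CPM in KAT2A_KD, 21.6 and 21.7 in KAT2B_KD, 30.4 and 22.7 in KAT2AB_KD, and 12 and 12.4 in NT (1.02, 0.83 and 1.12). The knockdown libraries did not overlap NT, and the KAT2AB_KD call held without any 1 library. The others were lost without NT 1 (adjusted p = 0.0614 in KAT2A_KD and 0.0695 in KAT2B_KD) or NT 2 (0.0807 and 0.0615). ELOVL3, a fatty acid elongase, was lower in all 3 (-2.30, -2.08 and -2.21), at 8.98 to 22.4 CPM in the knockdown libraries and 51.1 and 82.6 in NT. It was lost without NT 2 in each (0.197, 0.125 and 0.165), and also without KAT2A_KD 2 (0.156), KAT2B_KD 2 (0.0841), KAT2AB_KD 1 (0.0795) or KAT2AB_KD 2 (0.0632). In KAT2B_KD cells ELOVL1 (-1.2) and ELOVL4 (-1.12) were also lower without regard to which 1 library was left out. ELOVL7 was lower there too (-1.19, lost without KAT2B_KD 1, 0.107, or NT 2, 0.0688).
DGAT2 was at 205 and 236 CPM in KAT2A_KD, 212 and 182 in KAT2B_KD, 231 and 306 in KAT2AB_KD, and 414 and 428 in NT, so all 6 knockdown libraries were below NT. It was called lower in KAT2A_KD (-0.93, lost without KAT2A_KD 1, 0.292, KAT2A_KD 2, 0.155, NT 1, 0.146, or NT 2, 0.24) and in KAT2B_KD (-1.09, lost without KAT2B_KD 2, 0.06, or NT 2, 0.0533). In KAT2AB_KD cells FADS3 was higher (1.11, lost without KAT2AB_KD 1, 0.0582, KAT2AB_KD 2, 0.0729, NT 1, 0.129, or NT 2, 0.109). The acyl-CoA synthetase ACSL4 was also higher there (0.76, lost without KAT2AB_KD 1, 0.0779, KAT2AB_KD 2, 0.144, NT 1, 0.0745, or NT 2, 0.346).
Between KAT2AB_KD and KAT2B_KD cells at Differentiated, 9 of the 79 were higher and 2 lower, where 11% of all genes were called. ELOVL4 was higher (1.03, adjusted p = 0.00297), and that call held without any 1 library. The sterol transport protein gene GRAMD1C (1.39, lost without KAT2AB_KD 2, 0.089), the sterol transporter ABCG4 (2.77, lost without KAT2B_KD 1, 0.0597) and the pseudokinase TRIB1 (1.68, lost without KAT2B_KD 1, 0.0788) were also higher. So were ELOVL1 (0.88, lost without KAT2AB_KD 2, 0.0714) and ELOVL7 (1.09, lost without KAT2AB_KD 2, 0.112, or KAT2B_KD 1, 0.114). Between KAT2A_KD and KAT2B_KD cells, where 2.38% of all genes were called, INSIG2, the paralog of INSIG1, was higher (1.11, adjusted p = 0.0458; lost without KAT2A_KD 1, 0.575, KAT2B_KD 1, 0.208, or KAT2B_KD 2, 0.127).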

How the data were processed

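RNA-seq of 24 libraries was analysed, 2 for each of 12 groups of genotype and stage. The deposited table holds raw counts per gene and was used as the authors deposited it. FastQC, Bowtie2, featureCounts, DESeq2 and the build hg19 are named in the submitters' processing notes, without versions or settings; the strand setting and the treatment of reads that match several places are not given in the sources used here. The deposited normalized signal table equals these counts divided by a size factor per library, within a relative deviation of 5e-07, and was used only for that check. The count table has 1 column that matches no sample, which was not used, and 28 gene symbols turned into dates.

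Counts were fitted in edgeR 4.0.16 (R 4.3.3) with TMM factors (0.666 to 1.22), filterByExpr by group and the quasi-likelihood test. All 12 groups were fitted together (12 residual degrees of freedom, biological coefficient of variation 0.218). P-values were adjusted by Benjamini-Hochberg over the 15757 tested genes in each comparison, and a gene was called at an adjusted p under 0.05. Fold changes are log2 with standard errors, and a difference in stage change is a knockdown's change less that of NT. Library totals of 8010178 to 16054003 set the precision, and the correlation of log values within groups was 0.963 to 0.981. Alternatives were RLE size factors, DESeq2 1.42.0, no filter, only the compared groups, a replicate block and leaving out each library. For genes of the wider list and cell type markers, only the last of these was followed. Tables were assembled with Python 3.11.15 and pandas 2.3.3.

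Members and gene lists were chosen with earlier results of these data known. Every member is accounted for. Values per library are given for members called in a knockdown comparison or a difference in stage change, and for the 4 largest and 4 smallest called changes with stage in NT. From the wider list, up to 6 genes are named by lowest p among those called, in NT at Differentiated over Confluent and between genotypes at Differentiated; other comparisons of that list are not reported. Some genes are not reported here.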

Additional observations from a re-analysis of the deposited data

Results flagged for a closer look

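For 4 members the stage change differed between a knockdown and NT in a test of the difference itself (edgeR, adjusted p under 0.05). HSD17B7 differed by 1.28 on the log2 scale in KAT2A_KD and by 1.44 in KAT2AB_KD from Confluent to Differentiated, and by 1.19 in KAT2AB_KD from Subconfluent to Differentiated. Its counts keep a near fixed ratio to those of the near copy HSD17B7P2. IDI1 differed by 1.12 in KAT2AB_KD from Confluent and by 1.46 from Subconfluent. SC5D differed by 0.95 and MSMO1 by 1.40 in KAT2AB_KD from Subconfluent. These differences rest on the same 2 Differentiated NT libraries, and each of these calls was lost without at least 1 library.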

How the results depend on the processing

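With 2 libraries a group, few calls against NT survived the loss of 1 library, while the larger stage changes did. The 138 log2 changes of named genes are those of called members, and those of KAT2A and KAT2B against NT. None changed sign under an alternative where the main or the alternative fit called the gene (0 reversed). Changes of sign in values called in neither fit were not counted. Genes of the wider list and the cell type markers were followed only in the fits that left out a library, not under the other alternatives. For Differentiated against Confluent, the median change over all genes changed sign under RLE size factors. It became 0.041 in NT, 0.019 in KAT2A_KD and 0.036 in KAT2AB_KD cells. In NT the calls over all genes were then 4032 rises of 7916, against 3833 of 7949. Outside the fits that left out a library, 634 values of named genes kept their side of the threshold, 48 no longer passed and 8 newly passed. With a library left out, these were 390, 189 and 1. Size factors of the RLE kind moved no count of called members by over 1.5 times.

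DESeq2 called 4 members in KAT2B_KD, 1 in KAT2AB_KD and 2 in NT between Confluent and Subconfluent. Against NT it called 1 in KAT2A_KD and 2 in KAT2AB_KD at Confluent, 2 in KAT2AB_KD at Subconfluent, and 6 in KAT2A_KD and 8 in KAT2B_KD at Differentiated. Between knockdowns it called 3 for KAT2A_KD against KAT2B_KD and 1 for KAT2AB_KD against KAT2A_KD at Differentiated, and 5 for KAT2AB_KD against KAT2B_KD at Subconfluent. For differences in stage change it called 3 and 2 in KAT2A_KD (from Confluent, from Subconfluent), 2 in KAT2B_KD from Subconfluent, and 9 and 7 in KAT2AB_KD. In each of these comparisons DESeq2 also called more of all genes than edgeR. In KAT2AB_KD against NT at Subconfluent it called 733, against 425.

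Without the filter, 1 member was called in KAT2AB_KD between Confluent and Subconfluent. Against NT there were 1 in KAT2B_KD at Subconfluent and 1 at Confluent, 8 at Differentiated, and 2 in KAT2AB_KD at Confluent and 11 at Differentiated. Between knockdowns at Differentiated there were 3 for KAT2A_KD against KAT2B_KD and 1 for KAT2AB_KD against KAT2A_KD. Differences in stage change gave 0 in KAT2A_KD and 5 in KAT2AB_KD from Confluent, and 1 in KAT2B_KD from Subconfluent. In each of these comparisons more of all genes were also called without the filter than with it. In KAT2AB_KD against NT at Differentiated there were 782, against 431.

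In fits of only the compared groups, which have fewer samples, 0 members were called in KAT2B_KD between Confluent and Subconfluent, and 10 in KAT2AB_KD between Differentiated and Confluent. Against NT there were 1 in KAT2A_KD, 2 in KAT2B_KD and 1 in KAT2AB_KD at Differentiated, and 2 in KAT2AB_KD at Subconfluent and 0 at Confluent. KAT2AB_KD against KAT2B_KD gave 1, 0 and 3 over the 3 stages, and differences in stage change 0 in KAT2A_KD and in KAT2AB_KD. Calls over all genes also fell, to 63 from 254 in KAT2B_KD between Confluent and Subconfluent. They fell to 4979 from 7272 in KAT2AB_KD between Differentiated and Confluent, and to 386 from 1739 for KAT2AB_KD against KAT2B_KD at Differentiated. Only for differences in stage change in KAT2A_KD did they rise, to 120 from 97 (from Confluent) and to 80 from 73 (from Subconfluent).

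The deposited sample table gives replicate numbers 2 and 3. The labels pair no libraries, and the main fit did not treat same-numbered libraries as paired. Deviations of same-numbered libraries had a median correlation of 0.118 over 66 pairs of groups (-0.256 to 0.406) and passed 0.1 in 37. Whether same-numbered libraries share a source of variation was not tested further. A replicate block moved the calls over all genes from 7949 to 8214 in NT between Differentiated and Confluent. With the replicate block, 2 members were called in KAT2AB_KD against NT at Confluent, and differences in stage change gave 1 in KAT2B_KD from Subconfluent and 4 in KAT2AB_KD from Confluent. Other counts stayed within 1.5 times.

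Without 1 library, counts against NT at Differentiated ran from 0 to 3 in KAT2A_KD, 0 to 4 in KAT2B_KD and 2 to 8 in KAT2AB_KD, and in KAT2AB_KD from 0 to 0 at Subconfluent and 0 to 1 at Confluent. Between knockdowns at Differentiated they ran from 0 to 1 for KAT2A_KD against KAT2B_KD and for KAT2AB_KD against KAT2A_KD. KAT2AB_KD against KAT2B_KD ran from 1 to 2, 0 to 0 and 3 to 4 over the 3 stages. Differences in stage change ran from 0 to 0 and 0 to 1 in KAT2A_KD and from 0 to 6 and 0 to 8 in KAT2AB_KD (from Confluent, from Subconfluent). Confluent against Subconfluent ran from 0 to 2 in KAT2B_KD. Calls over all genes are not given for fits without 1 library, so the members' losses there cannot be set against those of all genes. ABCG1 before differentiation rests on few counts, which limits the precision of its stage change.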
